A study of Mus musculus with 2 samples.

Results

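The Mir200 family is a set of 5 microRNA genes, Mir200a, Mir200b, Mir429, Mir200c and Mir141, described here in the embryonic mouse limb. The genes were found by their symbols in the GENCODE M21 annotation, and all 5 were among the 1973 genes of the tables. Small RNA with inserts under 30 nucleotides had been sequenced from whole limb tissue of B6NCrl mouse embryos at embryonic day 14.5. There was 1 group of 2 samples, biological replicates 1 and 2, each made from 4 limbs, and the labels named no mutation and no treatment. Both samples bore the same donor identifier and the same pup label but different collection days, and their sex was given as pooled, so how independent the animals were cannot be read from the labels.

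MicroRNAs are cut as a hairpin from a longer primary transcript and then trimmed to a short duplex, of which the 5′ arm (5p) and the 3′ arm (3p) can each guide repression of mRNAs. The choice of targets rests largely on the seed, bases 2 to 8 of the mature microRNA. The Mir200 family is known as a keeper of the epithelial state: its members repress Zeb1 and Zeb2, transcription factors that switch off E-cadherin during the transition from epithelium to mesenchyme, and ZEB proteins in turn repress the Mir200 genes. In the limb the epithelium is the surface ectoderm that becomes the epidermis, around a core of cartilage, muscle, vessels and connective tissue.

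The mature 3p sequences are shown first because they define the groups compared below. All 5 genes matched the RefSeq table of build GRCm38.p6 and together gave 10 mature sequences. In the 3p sequences, written 5′ to 3′, capitals mark the seed:
miR-429-3p: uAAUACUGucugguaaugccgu
miR-200b-3p: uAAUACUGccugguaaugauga
miR-200c-3p: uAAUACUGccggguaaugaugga
miR-200a-3p: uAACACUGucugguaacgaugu
miR-141-3p: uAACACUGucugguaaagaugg

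The family fell into 2 seed groups. The first group, Mir200b, Mir200c and Mir429, had the seed AAUACUG, whose perfect complement in an mRNA is CAGUAUU. The second group, Mir200a and Mir141, had the seed AACACUG, with the complement CAGUGUU. Between miR-200a-3p and miR-200b-3p the only difference in the seed was C4U, with positions counted from 1 at the 5′ end and the base of the first-named microRNA first. Of the first 22 bases, 15 were shared by all 5 microRNAs. miR-200b-3p and miR-200c-3p differed by U11G and A22G alone over the 22 bases compared, and miR-141-3p and miR-200a-3p by A17C and G22U, 90.9% identity in each case. The genes of each of these closest pairs lay in different genomic clusters. In contrast, miR-429-3p was closest to miR-200a-3p and miR-200b-3p of its own cluster, with 4 differences from each. No mature microRNA outside the family, of 1738 in the table, had any of the seeds found in the family, 5p seeds included.

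The 5p sequences varied more. miR-200a-5p and miR-200b-5p shared the seed AUCUUAC, whereas the seeds of the other 3 5p sequences were each found in 1 member. Each count below covers a whole precursor, so reads of the 2 arms are summed, and the part of each arm was not measured. Grouping genes by the 3p seed is thus a grouping of genes, not of reads.

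The precursors follow, because they show what a gene's count can contain and where it lies. Each is on the minus strand of GRCm38.p6, and capitals mark the 5p and 3p sequences:
Mir200b, chr4:156055681-156055750: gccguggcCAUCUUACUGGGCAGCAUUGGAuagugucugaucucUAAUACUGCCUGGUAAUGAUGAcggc
Mir200a, chr4:156054896-156054985: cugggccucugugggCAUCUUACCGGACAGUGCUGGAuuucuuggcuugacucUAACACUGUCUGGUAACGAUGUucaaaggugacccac
Mir429, chr4:156053905-156053987: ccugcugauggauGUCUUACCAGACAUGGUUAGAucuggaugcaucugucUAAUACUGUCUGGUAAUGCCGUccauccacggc
Mir200c, chr6:124718322-124718390: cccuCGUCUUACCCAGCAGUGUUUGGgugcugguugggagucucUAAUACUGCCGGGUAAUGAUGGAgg
Mir141, chr6:124717914-124717985: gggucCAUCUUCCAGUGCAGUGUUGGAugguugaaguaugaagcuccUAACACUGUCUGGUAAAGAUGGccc

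On chromosome 4 the order of transcription was Mir200b, Mir200a, Mir429, with 695 and 908 bases between neighbours and 1846 bases from end to end. In GENCODE M21 these 3 genes lay in introns of Ttll10 transcripts, a gene of the tubulin tyrosine ligase-like family. They also lay within the noncoding transcript Gm13648, where Mir200b and Mir200a were intronic and all 83 bases of Mir429 fell in exon 2. On chromosome 6 Mir200c preceded Mir141 by 336 bases, and both lay in an intron of the noncoding transcript Gm15884. Of the 72 bases of Mir141, 31 also overlapped Gm29008, an unclassified transcript on the same strand. Among the 1894 genes of the tables that have a position in GENCODE M21, no other microRNA gene lay within 10 kb of a member on its strand.

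All 5 members were detected with well over 10 counts in both libraries. Levels are in CPM, a gene's own-strand count per 1000000 own-strand microRNA counts of its library, whose sum was 4608816 in replicate 1 and 4144385 in replicate 2. Intervals are exact Clopper-Pearson intervals at 95% and cover counting error only. Mir429 was the highest member, with 23447 counts or 5087 CPM (5023 to 5153) in replicate 1 and 20877 counts or 5037 CPM (4969 to 5106) in replicate 2, a mean of 5062 ± 35.4 CPM (SD, n = 2). Mir200c, the leading gene on chromosome 6, had 11890 and 10030 counts, that is 2580 CPM (2534 to 2627) and 2420 CPM (2373 to 2468). Mir200b followed with 9229 and 7728 counts, or 2002 CPM (1962 to 2044) and 1865 CPM (1823 to 1907).

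Both genes of the other seed group were far lower. Mir141 had 2210 and 1784 counts, 479.5 CPM (459.7 to 499.9) in replicate 1 and 430.5 CPM (411 to 451) in replicate 2. Mir200a, the lowest member, had 1638 and 1355 counts, 355 CPM (338 to 373) and 327 CPM (309.8 to 345). The order Mir429, Mir200c, Mir200b, Mir141, Mir200a was the same in both libraries, and between each pair of neighbours in that order neither the library values nor the intervals overlapped. The order was also the same when counts were divided by precursor length, from 308 for Mir200a to 4951 for Mir429 on a scale with the same total as CPM. These orders compare reads, since the yield of reads per molecule was not measured for any microRNA.

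**Figure D1:**
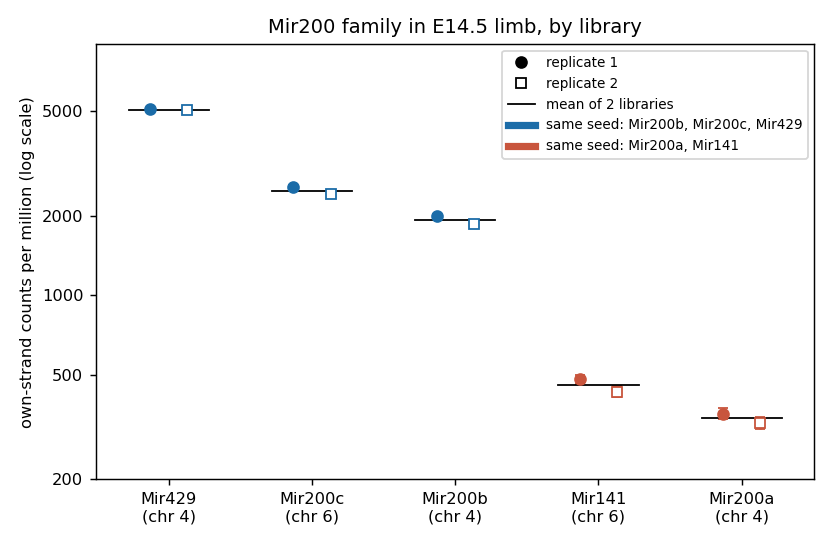
Level of each Mir200 family member in each library, in CPM on a log axis, with exact 95% counting intervals and a line at the mean of the 2 libraries. Mir429, Mir200c and Mir200b, which share a seed, lie between 1865 and 5087 CPM, and Mir141 and Mir200a between 327 and 479.5 CPM.

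The family summed to 48414 counts in replicate 1 and 41774 in replicate 2, or 10505 and 10080 CPM. Its mean was 1.03% ± 0.0300 (SD, n = 2) of the own-strand microRNA counts, a total without reads of several alignments. With those reads in the total, the mean level of the family was 6275 CPM. Mir429 alone gave 48.4% and 50.0% of the family's reads, Mir200c 24.6% and 24.0%, and Mir200b 19.1% and 18.5%. Mir141 gave 4.57% and 4.27%, and Mir200a 3.38% and 3.24%. The composition of the family was thus nearly the same in both samples, and no member's share differed by more than the 1.55 percentage points of Mir429.

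The genomic clusters were compared next. The chromosome 4 cluster summed to 7445 CPM in replicate 1 and 7229 CPM in replicate 2, and the chromosome 6 cluster to 3059 and 2851 CPM. The ratio of the chromosome 4 to the chromosome 6 cluster was 2.43 (2.39 to 2.48) in replicate 1 and 2.54 (2.48 to 2.59) in replicate 2, a mean of 2.48 ± 0.0724 (SD, n = 2). No test over the 2 samples was run on this ratio, and the excess of the chromosome 4 cluster was in both libraries far larger than the spread between them. It rested on Mir429: Mir200b was below Mir200c, with a ratio of Mir200c to Mir200b of 1.29 (1.25 to 1.32) in replicate 1 and 1.30 (1.26 to 1.34) in replicate 2. Mir200a was likewise below Mir141, by a ratio of Mir141 to Mir200a of 1.35 (1.27 to 1.44) and 1.32 (1.23 to 1.41).

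Genes of a cluster that share a primary transcript need not give equal reads, and within both clusters the levels were uneven. On chromosome 4 Mir429 had 14.3 times (13.6 to 15.1) the reads of Mir200a in replicate 1 and 15.4 times (14.6 to 16.3) in replicate 2, although only 908 bases separate the genes. Mir200b had 5.63 times (5.35 to 5.94) and 5.70 times (5.38 to 6.05) the reads of Mir200a. Mir429 had 2.54 times (2.48 to 2.60) and 2.70 times (2.63 to 2.77) the reads of Mir200b, and this pair of intervals did not overlap between the libraries. On chromosome 6 Mir200c had 5.38 times (5.14 to 5.63) and 5.62 times (5.35 to 5.92) the reads of Mir141.

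**Figure D2:**
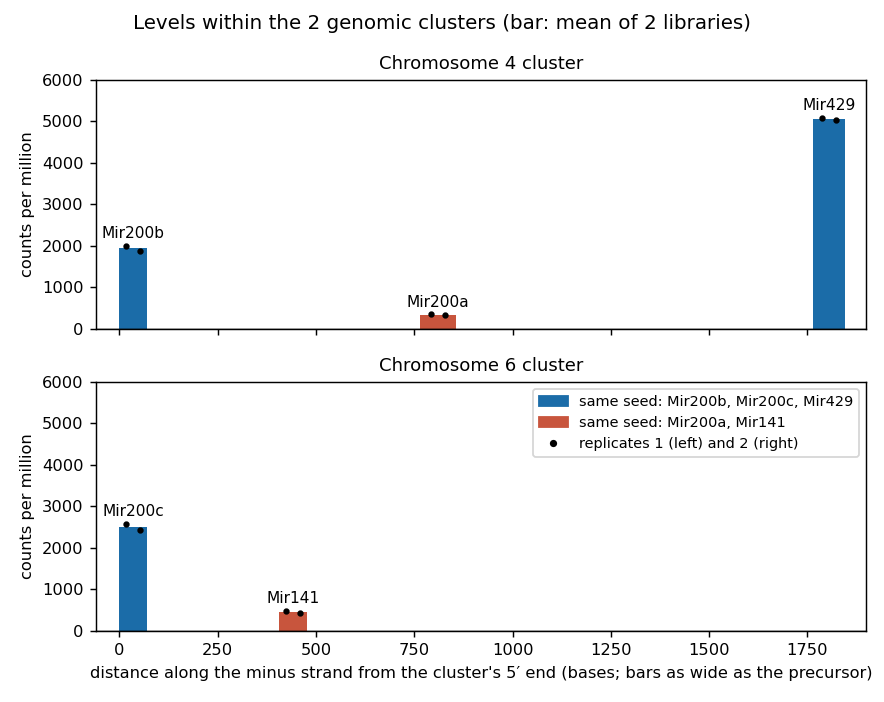
Mean CPM of each member drawn at its distance along the minus strand from the 5′ end of its cluster, in bases, with points for replicates 1 and 2 and bars as wide as the precursor. Mir200a lies between the much higher Mir200b and Mir429 on chromosome 4, and Mir141 lies 3′ of the higher Mir200c on chromosome 6.

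In both clusters the gene with the AACACUG seed was the lowest. The ratio of Mir200b to Mir200a on chromosome 4 and that of Mir200c to Mir141 on chromosome 6 had overlapping intervals in each library. Divided by precursor length, they lay further apart, at 7.29 for Mir200b to Mir200a and 5.74 for Mir200c to Mir141. Among 41 clusters of at least 2 genes, each gene with at least 10 counts in both libraries and within 10 kb of the next, the median fold between the highest and the lowest mean level was 16.0. In 15 of these clusters the lowest gene had an exact copy of a mature sequence in another hairpin, and reads with several alignments were given to no gene. When such genes, and genes with no mature sequence in the RefSeq table, were left out, a choice made after seeing the data, the median was 8.51 over 26 clusters. Of the 15 clusters of 2 genes counted in this way, 5 had a smaller fold than Mir200c to Mir141, and of the 5 clusters of 3 genes, 3 had a smaller fold than the Mir429 cluster.

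Grouped by 3p seed, Mir200b, Mir200c and Mir429 summed to 9670 CPM in replicate 1 and 9322 CPM in replicate 2, and Mir200a and Mir141 to 835 and 757 CPM. The AAUACUG genes thus held 92.0% and 92.5% of the family's reads. Their ratio to the AACACUG genes was 11.6 (11.2 to 12.0) in replicate 1 and 12.3 (11.9 to 12.8) in replicate 2, a mean of 11.9 ± 0.514 (SD, n = 2). The imbalance differed between the clusters. On chromosome 4, where the first group has a pair of genes, the reads of Mir200b and Mir429 together were 20.0 times (19.0 to 21.0) and 21.1 times (20.0 to 22.3) those of Mir200a, whereas the chromosome 6 ratio stayed below 6 in both libraries, as given above.

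**Figure D3:**
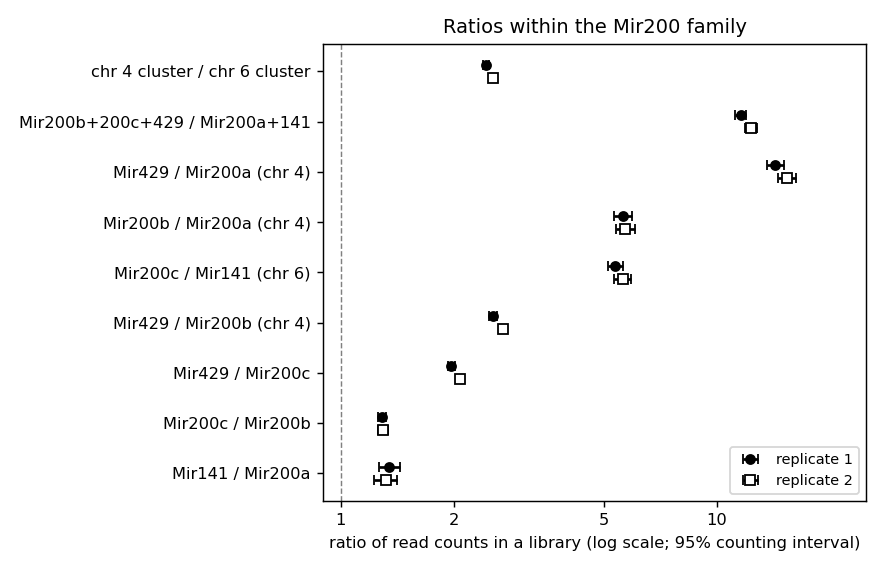
Ratios of read counts within each library on a log axis, for the genomic clusters, the seed groups and single pairs of members, with exact 95% counting intervals and a dashed line at equality. All points lie right of the line, from 1.29 for Mir200c to Mir200b to 15.4 for Mir429 to Mir200a.

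Among all genes of the tables, Mir429 ranked 39 in both libraries, Mir200c 65 and 70, and Mir200b 76 in both. Mir141 ranked 124 in replicate 1 and 129 in replicate 2, and Mir200a 142 and 147. Reads with several alignments, 31.8% and 32.6% of all reads, were given to no gene. Genes whose mature sequence recurs in other hairpins may thus be placed too low, and the members too near the top. The genes closest in level were found by the distance between log2(CPM + 1) values over the 2 libraries, which is a likeness of level only. Closest to Mir429 were Mir18 of the Mir17 cluster at a distance of 0.08, Mir27b at 0.11 and Mir182 at 0.11. Mir200c lay nearest to Mir298 (0.10), Mir16-1 (0.11) and Mir503 (0.13), and Mir200b to Mir337 (0.10), Mir484 (0.13) and Mir183 (0.16). Mir141 lay nearest to Mir362 (0.02), Mir186 (0.12) and Mir323 (0.18), and Mir200a to Mir31 (0.08), Mir598 (0.08) and Mir152 (0.08). No member was among the genes nearest to another member.

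**Figure D4:**
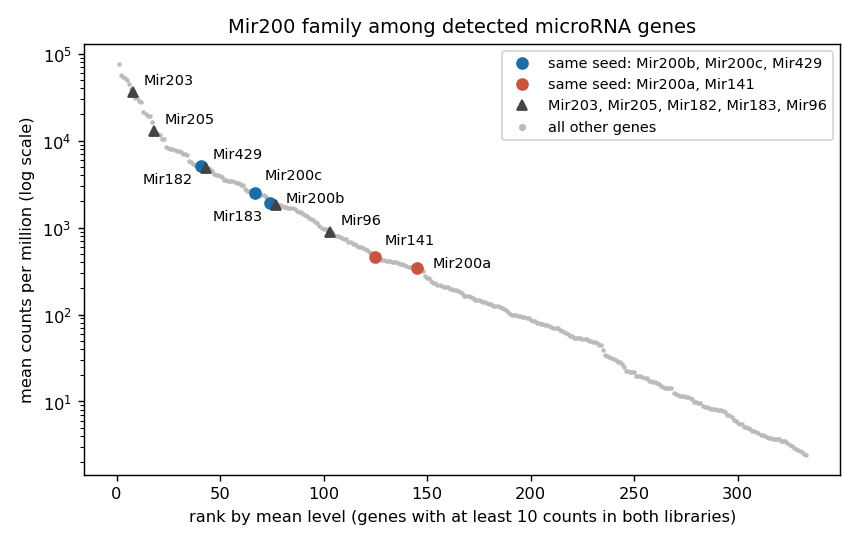
Mean CPM on a log axis against rank for the 333 genes with at least 10 counts in both libraries, with the Mir200 family and other microRNAs known from epithelium or sensory organs marked. Members spread from Mir429, near rank 40, to Mir200a, near rank 145, with Mir203 and Mir205 above all of them. Reads with several alignments are in no gene's count.

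The family was set beside other microRNAs known from epithelium. Mir203, which is known to restrain stemness in differentiating epidermis, was at 40413 and 31563 CPM, and the whole Mir200 family had 0.260 times (0.257 to 0.262) its reads in replicate 1 and 0.319 times (0.316 to 0.323) in replicate 2. Mir205, known from basal epithelial cells and a repressor of Zeb1 and Zeb2 like the Mir200 family, was at 13487 and 12288 CPM. The family had 0.779 times (0.770 to 0.788) and 0.820 times (0.810 to 0.831) the reads of Mir205, so all 5 members together stayed below this single gene in both libraries. Against the cluster of Mir183, Mir96 and Mir182, known from sensory organs and also found in epithelium, the family was higher, at 1.41 times (1.39 to 1.43) and 1.33 times (1.31 to 1.35). Mir34a, a p53 target that represses the transition factor Snai1, lay at 375 and 348 CPM, close to Mir200a. Mir34c lay at 561 and 580 CPM, Mir375 at 386.7 and 525.5 CPM, and Mir34b at 21.05 and 28.47 CPM. Against the sum of these 9 epithelial genes, 62704 and 52906 CPM, the family had 0.179 ± 0.0163 times (SD, n = 2) the reads.

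The samples were whole limbs, in which fewer cells of a type and less RNA per cell cannot be told apart. The limb list (Mir196a-1, Mir196a-2, Mir196b, Mir10a, Mir10b, Mir615) was detected for 6 of 6 genes, at 65414 and 68182 CPM. The family had 0.173 ± 0.00880 times (SD, n = 2) the reads of the mesenchyme list of 10 genes, led by Mir214, Mir10b (also in the limb list) and Mir143, and 0.168 ± 0.0119 times those of the cartilage genes Mir140 and Mir455. It had 1.85 ± 0.357 times the reads of the muscle list, led by Mir206, Mir499 and Mir133b, and 0.539 ± 0.0218 times those of endothelial Mir126a. The muscle sum holds almost nothing of Mir1a-1, Mir133a-1 and Mir133a-2, with 1 or 2 counts per library each; these are abundant muscle microRNAs made from several loci, whose shared reads would be given to no gene, so this ratio does not rank the family against muscle microRNAs. Mir199a-1, Mir199a-2 and Mir199b of the mesenchyme list have a mature sequence that recurs exactly in one another's hairpins. The same holds for Mir196a-1 and Mir196a-2 of the limb list. Their shared reads would be given to no gene, so both sums may be too low and the mesenchyme ratio too high. The leukocyte list, led by Mir223, Mir155 and Mir150, and the erythroid list, led by Mir451a, Mir144 and Mir486, were lower, with the family at 16.5 ± 1.54 and 21.7 ± 3.51 times their reads. The RefSeq table held no mature sequence under the symbol Mir486, so a copy of it could not be looked for. If it has copies, the erythroid sum may be too low and that ratio too high. Of the neural list 4 of 7 genes in the tables, all of them Mir124a or Mir9 genes, which exist as several loci with the same mature sequence, had no count in either library, and its highest genes were Mir128-1 and Mir128-2.

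The 2 libraries differed little in the family. Each gene was tested by an exact binomial test (two-sided, with the library totals as the expected split), and p-values were adjusted by Benjamini and Hochberg over all 407 genes with 10 or more counts in total. By the rule of a 2-fold difference and an adjusted p below 0.05, 0 of the 5 members differed, against 0.983% of the genes tested. Where at least 100 counts in total were required, 0 genes passed, so this rule set no gene of the members' depth apart. The binomial test sets reads against counting noise and compares these 2 libraries, not conditions. The log2 ratio of replicate 2 to replicate 1 was -0.01 for Mir429 (interval -0.04 to 0.01, adjusted p = 0.524 in the exact test), so the most abundant member was not separated between the libraries by its 44324 reads. For Mir200c it was -0.09 (-0.13 to -0.05), for Mir200b -0.10 (-0.15 to -0.06), for Mir200a -0.12 (-0.23 to -0.02) and for Mir141 -0.16 (-0.25 to -0.07).

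Without the fold threshold, 3 of the 5 members passed the exact binomial test, Mir200c (adjusted p = 1.26e-05), Mir200b (1.91e-05) and Mir141 (0.00267), against 35.6% of all genes tested. All 3 were lower in replicate 2, the direction in which 15.7% of the genes tested passed. Mir200a had an adjusted p of 0.0630 in this exact test. With TMM or DESeq2 scaling, which moved the median log2 ratio of all genes from 0.04 to 0.00, all 5 members passed and all were lower in replicate 2, against 33.2% and 32.7% of genes passing in either direction. These shares of all genes include genes with means under 100 CPM, which passed less often, whereas each member's mean was above 100 CPM. Over the 190 genes whose mean level reached 100 CPM the median size of the log2 ratio was 0.11, and 3 of the 5 members lay below it.

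Of the epithelial list of 9 genes, 9 were detected and 3 passed the exact binomial test without a fold threshold, against 35.6% of all genes tested. That share includes genes with means under 100 CPM, which passed less often, whereas in this list only Mir34b was so low. The 3 that passed were Mir203 and Mir205, lower in replicate 2 by log2 ratios of -0.36 and -0.13, and Mir375, higher by 0.44. Mir182, Mir183 and Mir96 had log2 ratios of 0.02, 0.05 and -0.01, and none passed. The ratios of the family to Mir203, to Mir205 and to the cluster of Mir183, Mir96 and Mir182 each differed between the libraries by more than their intervals. The ratios to Mir203 and Mir205 were higher in replicate 2, and the ratio to the cluster was lower. Sums of the other lists went both ways, and 43.0% of all genes tested were lower in replicate 2. The muscle list went from 6562 CPM in replicate 1 to 4786 CPM in replicate 2, and its 4 detected genes all passed, lower in replicate 2. The erythroid list went from 547 to 417 CPM, and Mir451a and Mir144 passed, whereas Mir486 was at 8.03 and 7.96 CPM. The neural list went from 309 to 272 CPM. The mesenchyme list was at 58567 and 60387 CPM, the cartilage list at 59560 and 63162, the leukocyte list at 598 and 655, and endothelial Mir126a at 18963 and 19268, all higher in replicate 2, as was the limb list. In the mesenchyme list 7 of 10 genes were nevertheless lower in replicate 2, and in the limb list 5 of 6. The highest genes of these lists, Mir214 and Mir196b, were higher, with log2 ratios of 0.205 and 0.137. The part of the other lists in the differences of the family was not tested.

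**Figure D5:**
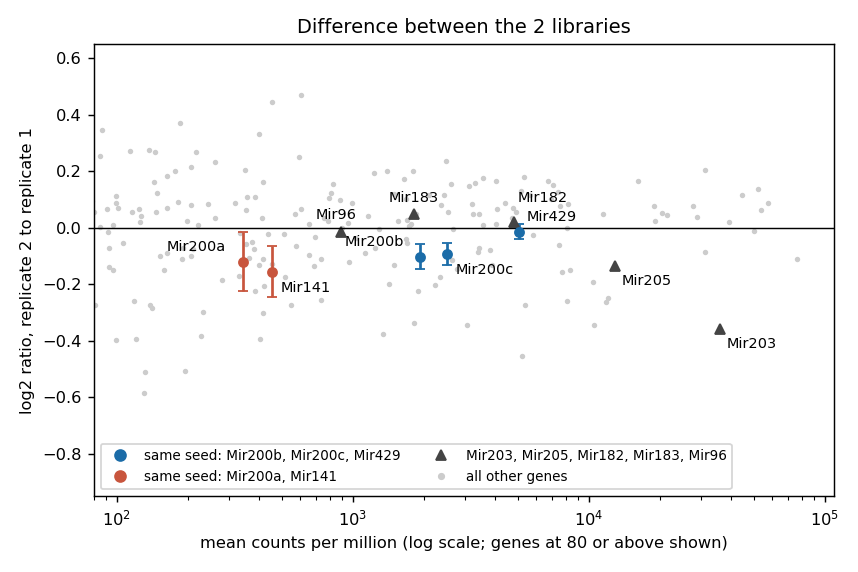
Log2 ratio of replicate 2 to replicate 1 against mean CPM on a log axis, with exact 95% counting intervals for the Mir200 family. The 5 members lie between -0.16 and -0.01, inside the cloud of other genes, and Mir203 lies lower at -0.36.

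Reads on the strand opposite to the members were nearly missing. Mir429, Mir200a and Mir200b had 0 opposite-strand counts in both libraries, Mir200c had 1 and 0, and Mir141 had 0 and 2, all under the 3 counts that a count of 0 allows. None of the 10 mature sequences occurred as an exact copy in another hairpin among the 1005 in the RefSeq table. The RefSeq table held fewer hairpins than the 1973 genes counted, so a copy in a hairpin it lacks would be missed. Among the hairpins held, the nearest window outside the family differed at 7 or more positions for each of the 10 sequences. Within the family the nearest pairs differed at 2 positions, as shown above, and whether reads were exchanged between them in alignment was not tested. Reads with several alignments, 31.8% and 32.6% of all reads, were given to no gene, and how many came from the family was not measured.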

How the data were processed

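The authors' deposited tables held raw counts of reads per microRNA gene, with no normalization, aligned to mm10 and counted on GENCODE M4, per the deposited read-me texts. The aligner, counter and settings are not given in the sources used here. The own-strand column was chosen from the values. Own-strand and opposite-strand counts add up to the either-strand column, which does not tell own from opposite. The column taken as own-strand was the larger, with 3.26% and 3.03% of the either-strand counts in the opposite-strand column. Low opposite-strand counts thus follow in part from which column was taken. Tally rows were left out of totals: replicate 1 held 9001596 reads, of which 51.2% were own-strand counts, and replicate 2 held 8387546, of which 49.4% were. Unmapped reads were 12.8% and 13.7%, and reads on no gene's own strand 4.19% and 4.31%. No molecular identifiers are recorded, and intervals cover counting error only. The p-values set the difference between these 2 libraries against counting error, not against a spread between samples, and that difference may be technical.

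Names and positions came from GENCODE M21 by gene identifier without version, which matched 1894 of 1973 genes. Mir200b and Mir200c carry an older version in the tables, so their counted span may differ from the coordinates given. Members and lists were chosen with earlier results of these data known. Named genes were the members, their 3 nearest genes in level and up to 3 leading genes of each marker list. Further epithelial genes were named with their values in view. A quasi-likelihood test was not run, since 1 library a side leaves no residual degrees of freedom. Log2 ratios carried a prior count of 0.5. The test was checked on data simulated with counting noise and set fold changes alone. That check does not cover samples that differ beyond counting noise. Alternatives were TMM (edgeR 4.0.16) and DESeq2 1.42.0 scaling in R 4.3.3, other totals, columns, filters and prior counts, counts per precursor base and each library alone. Scripts ran under Python 3.11.15 with scipy 1.17.1, numpy 2.4.6, matplotlib 3.10.9 and pandas 2.3.3.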

Additional observations from a re-analysis of the deposited data

How the results depend on the processing

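No paired analysis was possible because no groups of samples were compared. The ratios were each taken within a library. The order of the members, the direction of the cluster and seed ratios and the lower values of all 5 members in replicate 2 held under each alternative that was run for them. The summed level of the family was 6275 CPM with reads of several alignments in the total, 9969 CPM from the either-strand column and 10954 on the same scale when counts were divided by precursor length. That division moved the ratio of the chromosome 4 to the chromosome 6 cluster to 2.17 and the ratio of the family to Mir205 to 0.713. The number of genes that differed between the libraries by the exact binomial test was 0 where at least 100 counts were required and 145 without the fold threshold, because the first drops the shallow genes and the second asks for less. With an unadjusted p under 0.05, 166 of 407 genes passed. TMM and DESeq2 scaling change only the library sizes, so each shifted the log2 ratios of all genes by the same amount. Under both, Mir429 went from -0.01 to -0.06 and Mir200a from -0.12 to -0.16, past the threshold without a fold. The cause of the members' lower values in replicate 2 was not tested. With the either-strand column the rank of Mir200a moved from 145 to 154 and that of Mir141 from 125 to 134. What limits these results is the number of samples, the unknown yield of reads per molecule and the summing of both arms in a count, not depth, since the lowest member had 1355 reads or more per library.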
